A study of Mus musculus with 4 samples.

Results

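The 10 immunoglobulin constant genes described here are the heavy chain genes Igha, Ighm, Ighg1, Ighg2b, Ighg2c and Ighg3 and the light chain genes Igkc, Iglc1, Iglc2 and Iglc3. They were taken by name from the count matrices of mouse colon, and all 10 were listed in every library, among 29897 genes in all. Each plasma cell was assigned the heavy and the light constant gene that held most of its constant gene counts. The same genes were followed in B cells and, as RNA found in cells that do not make antibody, in the other cell classes. Colon of mice treated with carbon tetrachloride (CCl4), which injures the liver and brings on cirrhosis in rodents, was set against colon of control mice by droplet single-cell RNA sequencing, with 2 libraries in each group. CCl4 was given over 6 weeks to specific-pathogen-free mice aged 6 weeks at the start, and the labels record no age, vehicle or duration for the controls. The tissue is labelled mild-colon, and no strain, sex or number of animals is given, nor whether libraries of a group share animals. P-values therefore measure only the spread between libraries, which may be technical, and the liver was not measured.

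The constant gene of a heavy chain sets the class of an antibody. A B cell first makes IgM and IgD from Ighm and Ighd, and class switching then cuts out the DNA between Ighm and a constant gene further along, so that the same variable region is joined to an IgG, IgE or IgA constant region. Plasma cells of the gut wall make mostly IgA, which the J chain links into dimers and which the polymeric immunoglobulin receptor, Pigr, carries through the epithelium into the lumen. A cell's light chain is either kappa, with the constant gene Igkc, or lambda, with Iglc1, Iglc2 or Iglc3. In the GRCm38 build the heavy genes lie on the minus strand of chromosome 12, in the order Ighm (113418558 to 113422730), Ighg3, Ighg1, Ighg2b, Ighg2c and Igha (113254830 to 113260236) along the direction of transcription. Igkc lies on chromosome 6 (70726435 to 70726966, plus strand), and Iglc1, Iglc2 and Iglc3 lie on chromosome 16 on the minus strand.

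Per library, 92383719 and 74643979 counts over 13986 and 12464 barcodes came from CCl4 colon, and 55834301 and 58667918 counts over 10021 and 10038 barcodes from control colon. After filters, 10382 and 9791 CCl4 cells and 8103 and 8245 control cells remained, with a median mitochondrial share of 7.52% and 6.84% in CCl4 and of 4.84% and 4.56% in control. Libraries shared between 8191 and 10738 barcode names, which are serial numbers. Clusters were named from marker genes, so each class name stands for cells like that type. The plasma cell cluster held 303 and 251 CCl4 cells and 562 and 530 control cells, with all 12 plasma cell markers raised over other cells and Jchain as its leading gene. The B cell cluster held 159 and 149 CCl4 cells and 54 and 38 control cells, again with all 12 B cell markers raised. Immunoglobulin genes were left out of the clustering. The 10 genes made up 2.73% and 2.51% of all counts in CCl4 cells and 8.65% and 8.34% in control cells, and between 97.7% and 98.9% of those counts lay in plasma cells.

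Nearly every plasma cell was an IgA cell in both groups. Igha was the leading heavy chain gene in 300 of 303 and 247 of 251 plasma cells of the CCl4 libraries, and in 551 of 562 and 517 of 530 plasma cells of the control libraries. The IgA share averaged 98.7% ± 0.427 in CCl4 and 97.8% ± 0.350 in control (SD, n = 2 libraries each). Both CCl4 shares lay above both control shares, by 0.913 percentage points on average. The exact two-sided permutation test over libraries gave p = 0.333, the smallest p that 2 against 2 libraries allow. Exact (Clopper-Pearson) 95% intervals ran from 97.1% to 99.8% and from 96.0% to 99.6% in CCl4, against 96.5% to 99.0% and 95.8% to 98.7% in control. They overlapped, and like every interval here they cover counting error only. As a share of all cells, IgA plasma cells made up 2.89% and 2.52% in CCl4 and 6.80% and 6.27% in control (log2 ratio -1.27, SE 0.10, edgeR quasi-likelihood test on cells per class, adjusted p = 4.2e-13). Over non-epithelial cells only, the log2 ratio was -0.85 (SE 0.05, edgeR adjusted p = 8.02e-05). That test shares 1 estimate of the spread over all classes, so its p rests on the other classes varying alike.

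Within plasma cells, 4 of the 10 genes passed an adjusted p of 0.05 and are called here, Iglc2 higher and Ighg2b, Ighg2c and Iglc3 lower in CCl4. All 10 passed the filter on low counts. Of the 11025 genes tested in plasma cells, 1.01% were called higher and 0.444% lower. The median log2 ratio of the 10 genes was -0.34, against a median near 0 (-0.0029) over all genes tested. Levels below are counts per 1000000 counts (CPM) in the summed plasma cells of a library, scaled by the trimmed mean of M-values (TMM).

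**Figure D1:**
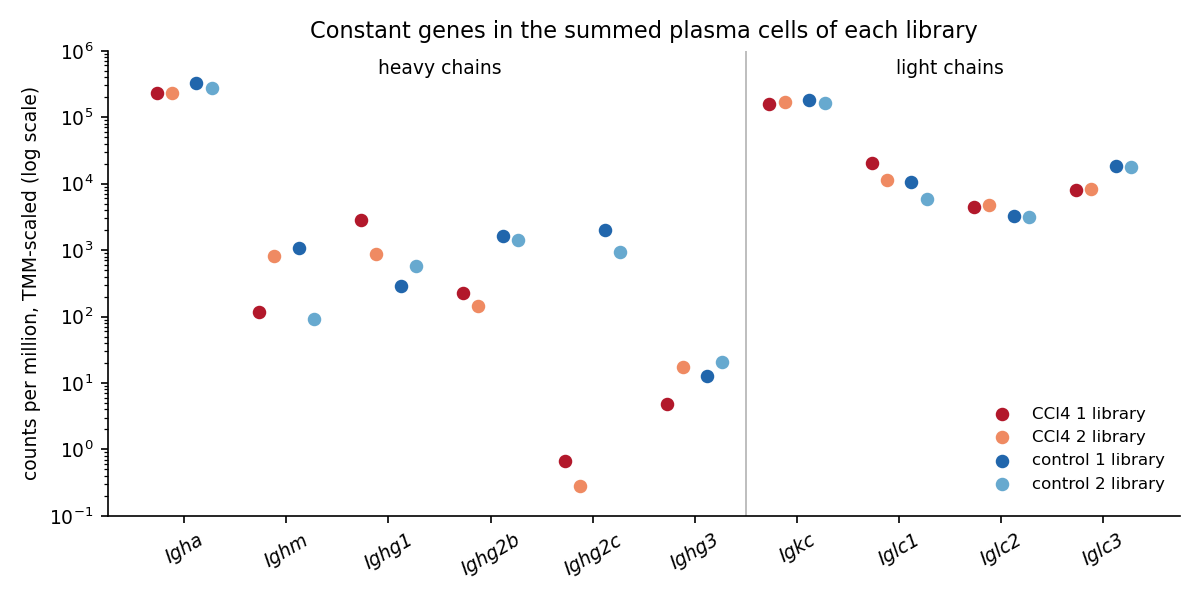
Level of each constant gene in the summed plasma cells of each library (y axis, CPM, TMM-scaled, log scale), with the 2 CCl4 libraries left of the 2 control libraries for every gene (x axis) and 1 point per library. Ighg2c lies under 1 CPM in both CCl4 libraries and at 920 and 2020 CPM in the control libraries, while Igkc overlaps between the groups.

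Igha itself, the IgA heavy chain, reached 235219 and 230561 CPM in CCl4 plasma cells, against 321531 and 277712 CPM in control plasma cells. Both CCl4 libraries lay under both control libraries. The difference did not pass the edgeR quasi-likelihood test (log2 ratio -0.36, SE 0.08, Benjamini-Hochberg adjusted p = 0.0694), whereas DESeq2 put it at an adjusted p of 0.0283. Per cell, the median IgA plasma cell held 3335 and 2967 Igha counts in CCl4 and 4247 and 4681 in control. Scaled to the cell's own total, that was 2511 and 2504 Igha counts per 10000 in CCl4 and 3034 and 2912 per 10000 in control. The median plasma cell held 1.34 and 1.25 heavy chain counts per light chain count in CCl4, against 1.60 and 1.53 in control. Jchain, which links IgA units, stood in a similar proportion to the heavy chain in both groups, with a median of 0.216 and 0.230 Jchain counts per heavy chain count in CCl4 and 0.207 and 0.218 in control.

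The difference in Ighm, the IgM heavy chain, lay within the spread of the libraries. Its level in plasma cells was 118 and 816 CPM in CCl4 and 1062 and 93.2 CPM in control, so each group held 1 high and 1 low library (log2 ratio -0.31, SE 0.97, edgeR adjusted p = 0.938). Ighm led in 0 and 1 plasma cells in CCl4 and in 2 and 1 in control. A single IgM cell carried 88.6% of all Ighm counts of CCl4 plasma cells in the second library, and 2 cells carried 91.6% in the first control library. The IgM cell of the second control library held only 62 Ighm counts, 0.186% of its total, beside 7508 Igkc counts. An absence of IgM cells among 303 cells of the first CCl4 library allows a share of up to 0.99%.

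IgG plasma cells were few in both groups. They numbered 3 and 3 in CCl4 and 9 and 12 in control, which is 0.0289% and 0.0306% of all CCl4 cells and 0.111% and 0.146% of all control cells (log2 ratio -2.06, SE 0.62, edgeR adjusted p = 0.0035 on cells per class; -1.65 over non-epithelial cells). As a share of plasma cells, IgG averaged 1.09% ± 0.145 in CCl4 and 1.93% ± 0.469 in control (SD, n = 2 libraries each; exact permutation p = 0.333). All 27 IgG cells used the kappa light chain. The subclasses were Ighg1 in 5 CCl4 and 6 control cells, Ighg2b in 1 CCl4 and 6 control cells, and Ighg2c in 0 CCl4 and 9 control cells. No plasma cell of either group was led by Ighg3. Ighd and Ighe were not among the genes of the call, and adding them left 1615 IgA and 27 IgG cells, the same numbers as before.

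Ighg2c, an IgG2 heavy chain gene that C57BL/6 mice carry where some other strains carry Ighg2a, was nearly absent from the CCl4 libraries. Over all deposited barcodes it had 7 and 5 counts in CCl4, against 15128 and 8202 in control. In plasma cells it had 3 and 1 counts (0.669 and 0.286 CPM) in CCl4 and 14939 and 8088 counts (2020 and 920 CPM) in control. The groups did not overlap (fitted log2 ratio -11.46, edgeR adjusted p = 1.1e-05), and the size of that fitted ratio depends on the prior count, since it rests on 4 CCl4 counts. Over all used cells the Ighg2c rate in control was 2901 times that in CCl4, with an exact 95% interval for counting error of 1621 to 5812. That interval takes every count as independent, so it leaves out the spread between cells and between libraries. As a share of plasma cells, Ighg2c cells averaged 0% in CCl4 and 0.822% in control (exact permutation p = 0.333). Of the control plasma cell counts, 97.8% and 94.9% lay in the 5 and 4 cells called Ighg2c. An absence among 554 CCl4 plasma cells allows a share of up to 0.542%. The labels name no strain, and Ighg2a is not among the genes listed.

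A low Ighg2c signal was also spread over control IgA cells. At least 1 Ighg2c count was found in 0.333% and 0.405% of IgA plasma cells in CCl4, against 10.7% and 9.48% in control. For Ighg2b the shares overlapped, at 18.0% and 10.5% in CCl4 and 9.44% and 12.4% in control. Ighm counts were found in 10.3% and 10.9% of CCl4 IgA cells and in 6.72% and 7.74% of control IgA cells, and Ighg1 counts in 6.00% and 4.05% of CCl4 and 1.09% and 3.29% of control IgA cells. Within an IgA cell these second genes were minor: the median count of the next heavy gene was 0 in every library, and it passed 10% of the Igha count in 1 and 0 CCl4 cells and in 2 and 1 control cells.

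**Figure D2:**
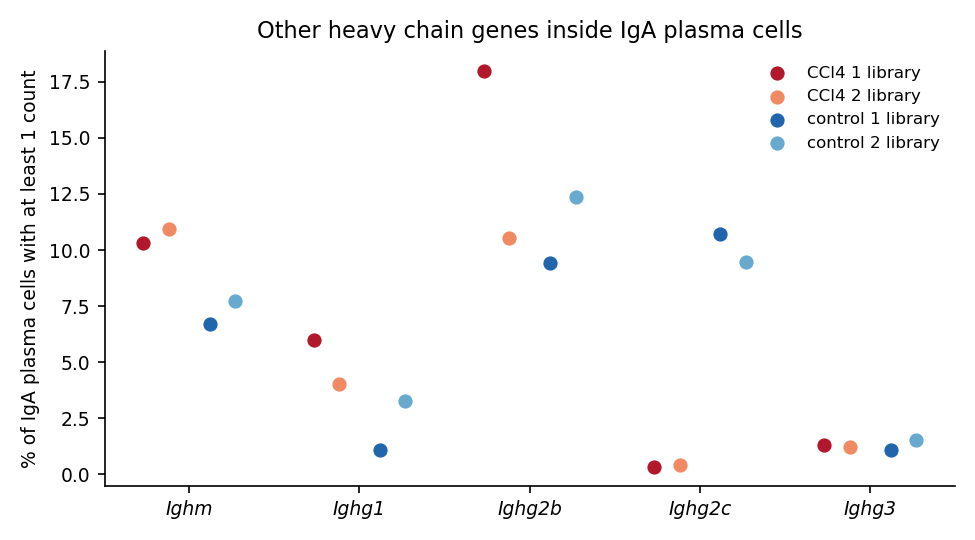
Share of IgA plasma cells with at least 1 count of each other heavy chain gene (y axis, percent; x axis, gene), 1 point per library, CCl4 left of control. Ighg2c separates the groups, at 0.333% and 0.405% in CCl4 and 10.7% and 9.48% in control, while Ighg2b overlaps.

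Ighg2b, the neighbouring IgG2 gene, fell in CCl4 plasma cells. It had 222 and 144 CPM in CCl4 and 1649 and 1440.0 CPM in control, with no overlap (log2 ratio -3.07, SE 0.19, edgeR adjusted p = 6.45e-05). Cells called Ighg2b held 0% and 14.6% of these counts in CCl4 and 90.7% and 80.9% in control, so most control counts lay in 6 cells. The single CCl4 cell called Ighg2b had 74 counts of it and no heavy chain variable segment with enough counts to be called. The 2 genes resemble each other, with 85.6% of coding bases identical between them, so reads could in principle be shared. The 107 bases after the coding part are more alike, at 91.6% identical. The median Ighg2c cell held 10 counts of its next heavy gene beside 2642 of Ighg2c, whichever gene came next, and the median Ighg2b cell 25 beside 3626. These cells were called by their leading gene, and only counts already assigned to a gene were seen. The part of read sharing was therefore not tested. Their first coding exons, of 291 bases each on the minus strand (GENCODE M21, GRCm38), are shown because reads can be told apart between the genes only where such bases differ. The part of the transcript that the reads covered was not seen in the counts. Capitals mark the 36 bases at which the aligned exons differ, and the exons lie at chr12:113307643-113307933 for Ighg2b and chr12:113288642-113288932 for Ighg2c.
Ighg2b: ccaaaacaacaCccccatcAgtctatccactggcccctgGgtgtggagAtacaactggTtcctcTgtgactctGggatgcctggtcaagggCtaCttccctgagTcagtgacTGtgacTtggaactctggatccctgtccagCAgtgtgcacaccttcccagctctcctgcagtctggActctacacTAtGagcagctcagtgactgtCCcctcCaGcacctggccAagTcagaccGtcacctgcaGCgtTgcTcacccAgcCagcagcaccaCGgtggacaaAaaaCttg
Ighg2c: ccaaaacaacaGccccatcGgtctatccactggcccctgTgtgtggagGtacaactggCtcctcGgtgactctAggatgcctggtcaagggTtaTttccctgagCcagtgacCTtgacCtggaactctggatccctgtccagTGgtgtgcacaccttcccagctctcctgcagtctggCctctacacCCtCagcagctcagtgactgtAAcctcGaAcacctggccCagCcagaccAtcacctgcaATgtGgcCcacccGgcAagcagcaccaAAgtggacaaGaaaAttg

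Ighg1, another IgG heavy chain gene, did not pass the test. It had 2815 and 859.5 CPM in CCl4 plasma cells and 291 and 573 CPM in control plasma cells, and the groups did not overlap (log2 ratio 2.09, SE 0.48, edgeR adjusted p = 0.0810). The value rested on single libraries: the log2 ratio was 0.99 without the first CCl4 library (adjusted p = 0.161), and edgeR called the gene without the second CCl4 library (2.71, adjusted p = 8.96e-06) and without the second control library (2.65, adjusted p = 0.0186). Between 96.3% and 98.3% of its counts lay in the 2 to 4 Ighg1 cells of each library, and the 3 cells of the first CCl4 library held 5329, 4213 and 2862 counts. Ighg3 was at trace level, with 4.91 and 17.1 CPM in CCl4 and 12.6 and 20.7 CPM in control (log2 ratio -0.65, edgeR adjusted p = 0.626).

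Plasma cells of the other classes partly carried the variable segments of IgA cells. A call of both the heavy and the light variable segment was possible in 27 of the 31 plasma cells that were not IgA. The same pair was found among IgA cells of the same library for 3 of 11 Ighg1 cells, 2 of 5 Ighg2b cells, 4 of 8 Ighg2c cells and 1 of 3 Ighm cells. How often the pair of an IgA cell recurs in its library was not counted, so these numbers are not a trait of the other classes. The pair alone does not show descent from a common cell, since the joined sequence was not read.

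**Figure D3:**
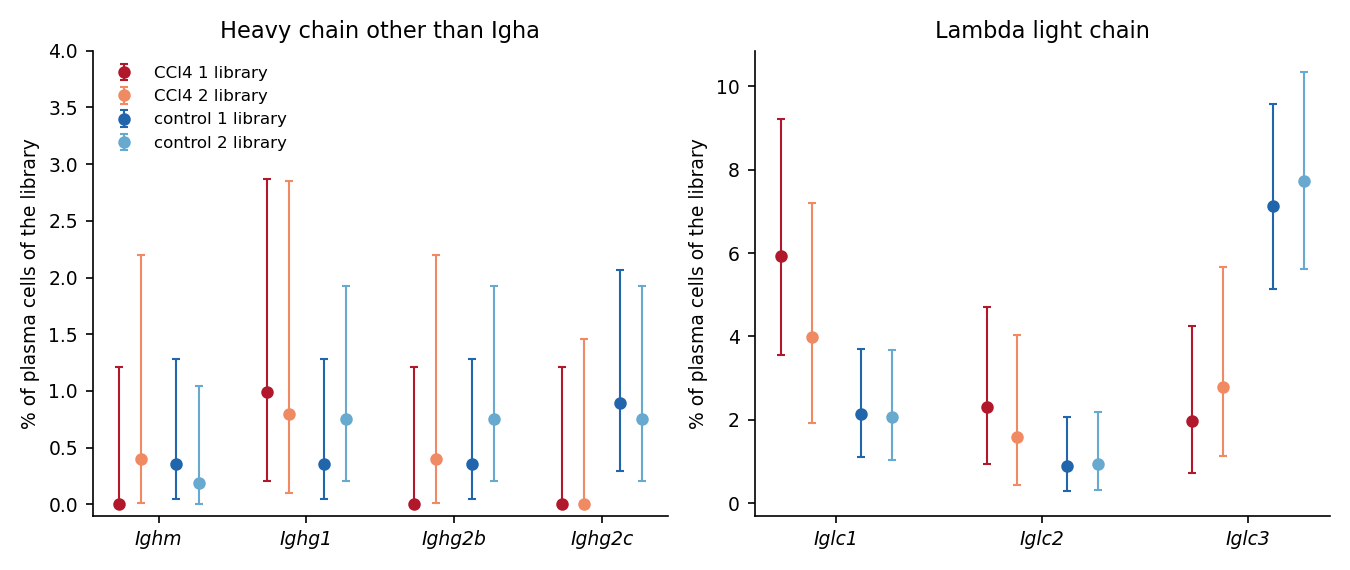
Plasma cells led by a heavy chain gene other than Igha (left) and by each lambda light chain gene (right), as a percent of the plasma cells of each library (y axes), with exact 95% binomial intervals and CCl4 left of control. The intervals of the non-IgA classes overlap between groups for every gene drawn. Iglc3 lies at 1.98% and 2.79% in CCl4 and at 7.12% and 7.74% in control. Its interval in the second CCl4 library, up to 5.66%, overlaps those of the control libraries, which start at 5.13% and 5.61%.

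The shares of kappa and lambda cells overlapped between the groups, while the lambda cells were led by different constant genes. Igkc led in 272 and 230 CCl4 and in 505 and 473 control plasma cells. Lambda genes led in 10.2% and 8.37% of CCl4 and in 10.1% and 10.8% of control plasma cells, so the groups overlapped (difference of -1.15 percentage points, exact permutation p = 0.667). Without 1 library the difference ran between -2.08, without the first CCl4 library, and -0.217 points, without the second. Igkc had 160581 and 169172 CPM in CCl4 and 181398 and 161513 CPM in control plasma cells (log2 ratio -0.06, SE 0.08, edgeR adjusted p = 0.839). Among lambda cells, Iglc1 led in 52.8% ± 7.39 in CCl4 and 20.2% ± 1.24 in control, and Iglc3 in 26.3% ± 9.88 in CCl4 and 71.1% ± 1.24 in control (SD, n = 2 libraries each; exact permutation p = 0.333 for either gene). Iglc2 cells numbered 7 and 4 in CCl4 and 5 and 5 in control.

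Iglc3 was the lambda gene that fell. It had 8046 and 8161 CPM in CCl4 plasma cells and 18428 and 17623 CPM in control plasma cells (log2 ratio -1.15, SE 0.08, edgeR adjusted p = 1.06e-04), with no overlap. The number of Iglc3 cells was 6 and 7 in CCl4 and 40 and 41 in control, a log2 ratio of -2.92 as a share of all cells (SE 0.36, edgeR adjusted p = 4.9e-09). Iglc1 cells made up 0.173% and 0.102% of all CCl4 cells and 0.148% and 0.133% of all control cells, which did not differ beyond the spread (log2 ratio -0.02, SE 0.41, edgeR adjusted p = 0.963).

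Most of the control Iglc3 cells shared a single pair of variable segments. In the control libraries 32 of 40 and 39 of 41 Iglc3 cells used Ighv14-3 with Iglv1, a pair that no Iglc3 cell of the CCl4 libraries used. The leading pair of CCl4 Iglc3 cells was Ighv7-3 with Iglv1, in 3 of 6 and 6 of 7 cells, and it was found in 1 and 0 control cells. With the Ighv14-3 cells left out, an alternative chosen after the data were seen, Iglc3 led in 1.98% and 2.79% of CCl4 and in 1.51% and 0.407% of control plasma cells. The Iglc3 level of the remaining plasma cells was 7949 and 8087 CPM in CCl4 against 1317 and 784 CPM in control (log2 ratio 2.93). This step takes out Iglc3 cells of the control libraries only and leaves the leading pair of the CCl4 libraries in, so its values are a description with no test. The lambda share then became 10.2% and 8.37% in CCl4 against 4.72% and 3.67% in control. More widely, of the 10 leading pairs of a library, the CCl4 libraries shared 4 with each other and the control libraries 6. No library shared any with a library of the other group. Counting a pair found in any plasma cell, 9 and 10 of the 10 recurred between the CCl4 libraries and 10 and 10 between the control libraries. Between groups 0 to 2 did. The labels do not say whether libraries of a group share animals, so differences between groups and between animals cannot be told apart here. The most frequent were Ighv1-39 with Igkv14-111 in CCl4 (19 and 21 cells, against 0 and 0 in control) and Ighv2-4 with Igkv8-21 in control (0 and 0 cells in CCl4, against 78 and 52).

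**Figure D4:**
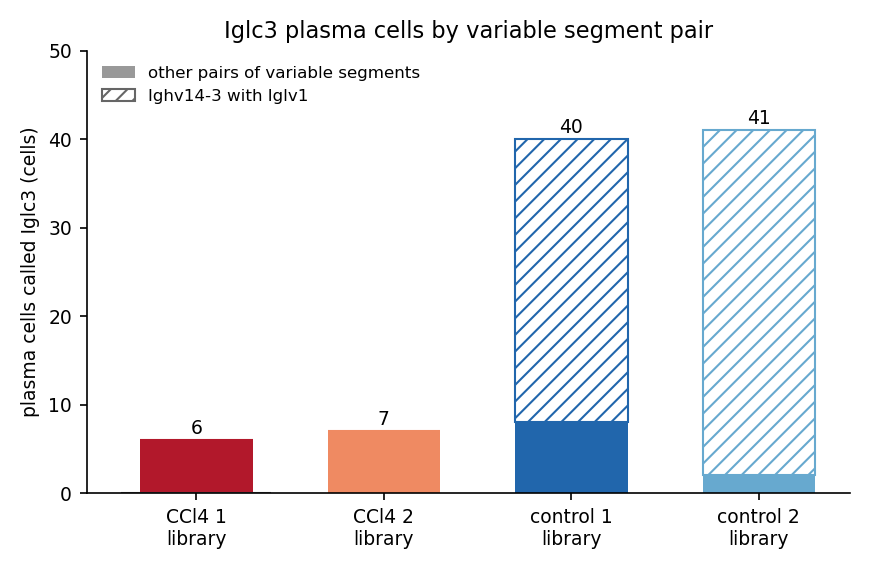
Plasma cells called Iglc3 in each library (y axis, number of cells; x axis, library), split into cells with the pair Ighv14-3 and Iglv1 (hatched) and all others (solid). The CCl4 libraries hold 6 and 7 Iglc3 cells, all solid, and the control libraries 40 and 41, of which 32 and 39 are hatched.

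Iglc2 rose slightly, to 4460 and 4699 CPM in CCl4 plasma cells against 3213 and 3100.3 CPM in control (log2 ratio 0.54, SE 0.08, edgeR adjusted p = 0.0162). The call was lost without either CCl4 library (log2 ratio 0.57 and 0.50). Without the Ighv14-3 cells the log2 ratio was 0.39, with 4406 and 4657 CPM in CCl4 and 3466 and 3447 CPM in control. That step takes out Iglc3 cells of control only, so this value is a description with no test. Iglc2 cells held 80.0% and 70.0% of these counts in CCl4 and 61.2% and 59.6% in control. Iglc1 had 20706 and 11279 CPM in CCl4 and 10559 and 5968 CPM in control, and the difference did not pass the test (log2 ratio 0.95, SE 0.29, edgeR adjusted p = 0.196). Iglc2 and Iglc3 are near copies, with 95.9% of coding bases identical, against 73.3% between Iglc1 and Iglc2 and 74.2% between Iglc1 and Iglc3. Reads could be split between the near copies, and the part of such sharing in the calls was not tested. The median Iglc3 cell held 13.5 and 14 Iglc2 counts in CCl4 and 6 and 7 in control, beside medians of 6089 and 5213 Iglc3 counts in CCl4 and 3145 and 3407 in control. The median Iglc2 cell held 5 and 5 Iglc3 counts in CCl4 and 3 and 329 in control, beside medians of 1808 and 2197 Iglc2 counts in CCl4 and 2350 and 3089 in control. The first 290 bases of both coding sequences are shown because the 2 genes had opposite calls and differ at few bases. They come from GENCODE M21 transcripts and lie on the minus strand at chr16:19198561-19198850 (Iglc2) and chr16:19065392-19065681 (Iglc3). Capitals mark the bases that differ between them in the alignment, 11 in Iglc2 and 13 in Iglc3.
Iglc2: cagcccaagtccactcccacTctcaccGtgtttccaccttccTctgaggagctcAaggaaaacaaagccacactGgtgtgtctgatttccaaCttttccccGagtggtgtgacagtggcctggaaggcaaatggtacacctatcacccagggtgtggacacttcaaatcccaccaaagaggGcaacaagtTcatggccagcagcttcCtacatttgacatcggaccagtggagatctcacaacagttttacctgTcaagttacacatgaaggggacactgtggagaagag
Iglc3: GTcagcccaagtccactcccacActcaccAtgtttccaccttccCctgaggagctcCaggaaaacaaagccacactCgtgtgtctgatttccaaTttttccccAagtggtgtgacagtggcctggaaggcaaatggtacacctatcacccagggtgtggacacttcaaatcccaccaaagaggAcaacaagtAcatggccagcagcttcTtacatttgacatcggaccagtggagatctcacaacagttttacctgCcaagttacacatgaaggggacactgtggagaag

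In B cells none of the 10 genes was called, which does not show that they were alike. Of the 10, 7 passed the filter on low counts. Among the 4085 genes tested in B cells, 0% were called lower and 0.0245% higher (282 had an unadjusted p under 0.05 with edgeR, and DESeq2 called 4 genes). Ighm, part of the B cell receptor, had 1473 and 1483 CPM in CCl4 B cells and 1516 and 1507 CPM in control B cells (log2 ratio -0.03, SE 0.17, edgeR adjusted p = 0.991). At least 1 Ighm count was found in 77.4% and 78.5% of CCl4 and in 66.7% and 50% of control B cells. With every cell thinned to 1000 counts the shares were 58.5% and 60.4% in CCl4 and 53.7% and 42.1% in control, and the exact intervals overlapped. Ighd, the IgD gene of resting B cells, was found in 36.5% and 34.9% of CCl4 and 40.7% and 31.6% of control B cells.

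Ighm was the leading heavy gene of 104 and 106 CCl4 B cells and of 25 and 11 control B cells. Igha led in 34 and 23 CCl4 and in 25 and 22 control B cells, where the median total was only 2660 and 2495 counts in CCl4 and 2250 and 2231 in control. Thinned to 1000 counts, Igha was found in 32.7% and 19.5% of CCl4 B cells and 61.1% and 55.3% of control B cells, against 22.9% and 20.1% of CCl4 T cells and 45.9% and 49.8% of control T cells, which make no antibody. The B cell share was the higher one in all libraries but the second CCl4 library, and the part of free RNA in it was not tested. The summed Igha level in B cells was 466 and 4651 CPM in CCl4 and 1787 and 1099 CPM in control, and a single cell held 1097 of the 1816 Igha counts of the second CCl4 library. Lambda genes led in 3.70% and 7.32% of the B cells with a light chain in CCl4 and in 4.17% and 3.03% in control, with wide and overlapping exact intervals.

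RNA of the constant genes was found throughout the other cell classes, and between 1 and 4 of the genes tested in a class were called lower in CCl4. Such counts can come from free RNA in the droplets, from doublets or from misplaced cells, and these cannot be told apart. Each of 10 other classes held 50 cells or more per library, and Igha was called lower in 8 of them. Of all genes tested, the shares called lower were 0.572% in colonocytes, 0.175% in endothelial cells, 0.625% in fibroblasts, 0.261% in glia, 0.387% in goblet cells and 0.0186% in lymphatic endothelial cells. They were 0.346% in macrophages and monocytes, 0.362% in smooth muscle, 0.398% in T cells and 1.6% in undivided epithelial cells. In fibroblasts Igha had 248 and 245 CPM in CCl4 and 732 and 700.2 CPM in control (log2 ratio -1.54, SE 0.08, edgeR adjusted p = 1.07e-08). In colonocytes it had 184 and 114 CPM in CCl4 and 389 and 397 CPM in control (log2 ratio -1.40, SE 0.14, edgeR adjusted p = 1.92e-05). Over the 8 classes the log2 ratio ran between -1.26 in T cells and -1.57 in lymphatic endothelial cells. The sign turned in 2 classes under other settings: the log2 ratio was 0.51 in colonocytes with a stricter cell filter (500 genes, 10% mitochondrial counts; edgeR adjusted p = 0.715) and 1.07 in glia with the constant genes kept in the clustering (edgeR adjusted p = 0.375).

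Igha was not called in macrophages and monocytes or in goblet cells. A few cells rich in immunoglobulin RNA were found there and in several classes with a call. Undivided epithelial cells, for example, had 3 and 1 such cells in CCl4 and 4 and 1 in control. Most such cells lay in the unnamed clusters, which were not tested, with 4 and 4 in CCl4 and 22 and 46 in control. In macrophages and monocytes Igha had 305 and 1372 CPM in CCl4 and 763 and 771 CPM in control (log2 ratio 0.13, SE 0.35, edgeR adjusted p = 0.949), and 3 of 592 cells of the second CCl4 library had over 5% of their counts in the 10 genes. Without such cells, an alternative chosen after the data were seen, the level was 305 and 260 CPM in CCl4. It was 762 and 772 CPM in control (log2 ratio -1.44). In goblet cells Igha had 185 and 319 CPM in CCl4 and 356 and 416 CPM in control (log2 ratio -0.62, SE 0.17, edgeR adjusted p = 0.109). Without 1 and 2 such CCl4 cells it had 171 and 164 CPM in CCl4, against 356 and 416 CPM in control. In both classes the step takes out CCl4 cells only, chosen by counts of the same genes. Its values are therefore a description with no test.

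Thinned to 1000 counts per cell, the share of cells with an Igha count was 23.7% and 20.2% of fibroblasts in CCl4, against 46.7% and 46.2% in control. It was 22.6% and 22.8% of macrophages and monocytes in CCl4, against 47.3% and 47.6% in control, and 15.2% and 12.7% of colonocytes in CCl4, against 32.5% and 35.5% in control. The exact intervals did not overlap between the groups in any of these classes. Before thinning, the fibroblast shares were 59.5% and 50.6% in CCl4 and 82.7% and 85.9% in control, at medians of 4388 and 3908 counts per cell in CCl4 and 3716 and 4028 in control. Over all other named classes together, the Igha level was 234 and 277 CPM in CCl4 and 602 and 609 CPM in control. Set against the Igha level over all cells of the library, that was 1.58% and 2.05% in CCl4 and 1.17% and 1.23% in control. The change of Igha in these classes was not shown to differ from that in plasma cells: the largest difference towards a deeper fall, in fibroblasts, was -1.10 on the log2 scale (SE 0.47, edgeR interaction adjusted p = 0.491).

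Of the other genes, Iglc3 was called lower in 9 of the 10 classes, all but lymphatic endothelial cells, with 7.14 and 8.28 CPM in CCl4 fibroblasts and 38.7 and 40.9 CPM in control fibroblasts (log2 ratio -2.37, SE 0.15, edgeR adjusted p = 1.79e-07). The number of Igkc counts per 100 Igha counts was 69.7 and 66.7 in CCl4 fibroblasts and 50.9 and 56.1 in control fibroblasts. In plasma cells it was 68.3 and 73.4 in CCl4 and 56.4 and 58.2 in control, so in both classes it lay higher in both CCl4 libraries. Among the 10 classes tested outside the B lineage, the ratio reached 104 in goblet cells of the second CCl4 library. It overlapped between the groups in macrophages and monocytes (57.0 and 51.3 in CCl4, 51.2 and 54.4 in control). The same held in glia (47.7 and 85.9 in CCl4, 49.9 and 53.9 in control). Ighg2c was called lower in fibroblasts (1 and 0 counts in CCl4, 26 and 14 in control) and in undivided epithelial cells (0 and 1 counts in CCl4, 7 and 14 in control). No member was called higher in any of the 10 classes, where the share of all genes called higher was 0.29% in colonocytes, 0.375% in endothelial cells, 1.4% in fibroblasts, 0.523% in glia and 0.887% in goblet cells. It was 0.223% in lymphatic endothelial cells, 0.994% in macrophages and monocytes, 1.13% in smooth muscle, 0.796% in T cells and 1.1% in undivided epithelial cells. Pigr moved in the opposite direction in several classes that are not epithelial, with 105 and 115 CPM in CCl4 fibroblasts and 26.9 and 65.8 CPM in control fibroblasts (log2 ratio 1.23, edgeR adjusted p = 0.0108).

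**Figure D5:**
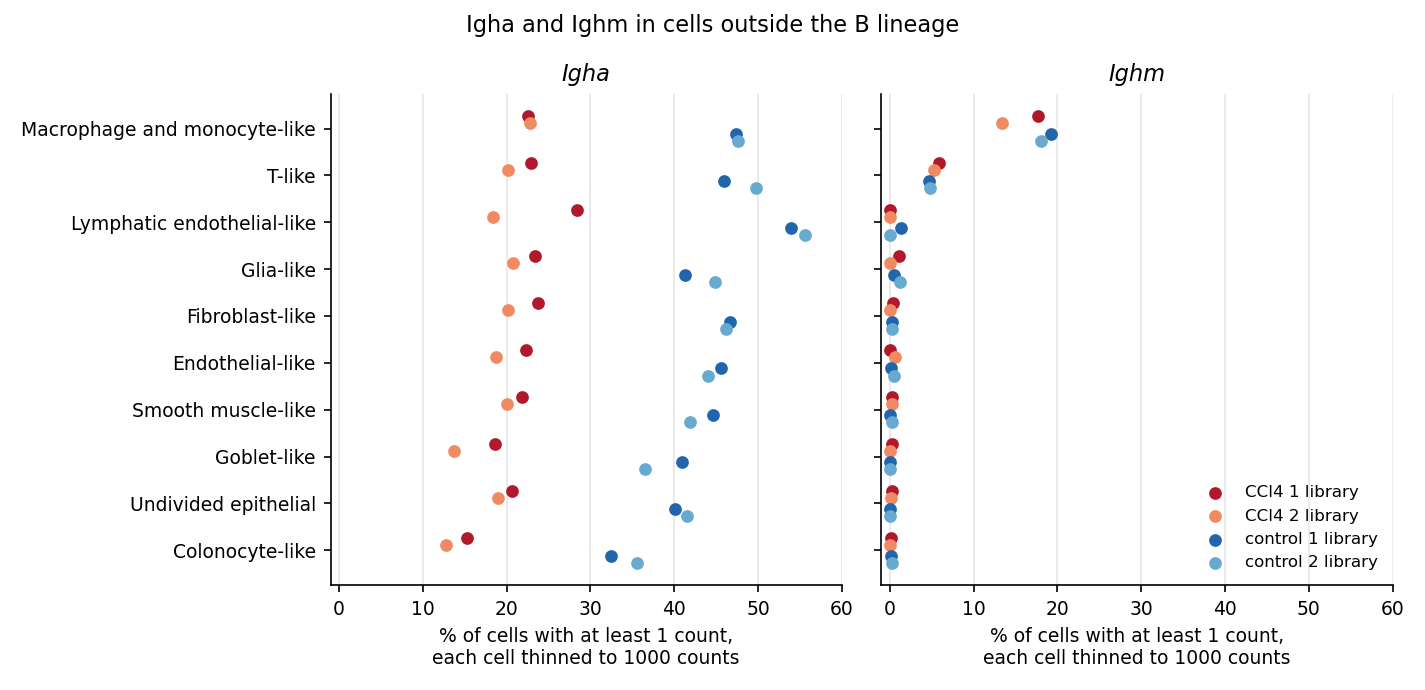
Share of cells with at least 1 Igha count (left) and at least 1 Ighm count (right) in 10 classes outside the B lineage (x axes, percent of cells after thinning each cell to 1000 counts; y axis, class), 1 point per library, CCl4 above control. Igha is found in every class drawn and is lower in CCl4, with smaller shares in colonocytes than in fibroblasts. Ighm stands above the other classes drawn in macrophages and monocytes, at 17.7% and 13.3% in CCl4 and 19.2% and 18.1% in control, and in T cells. Dendritic cells, with under 50 cells per library, are not drawn.

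Ighm did not follow the pattern of Igha over these classes. In macrophages and monocytes it had 184 and 175 CPM in CCl4 and 227 and 213 CPM in control, and in T cells 71.7 and 54.6 CPM in CCl4 and 65.8 and 50.5 CPM in control. Fibroblasts had 5.02 and 1.27 CPM in CCl4 and 5.45 and 2.21 CPM in control. After thinning, 17.7% and 13.3% of CCl4 and 19.2% and 18.1% of control macrophages and monocytes held an Ighm count, against 0.376% and 0% of CCl4 and 0.307% and 0.219% of control fibroblasts, and the exact intervals of the 2 classes were far apart in every library. The unthinned shares were 38.4% and 38.0% in CCl4 and 37.7% and 41.0% in control macrophages, at medians of 3698 and 3618 counts per cell in CCl4 and 3205 and 3629 in control.

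No single cell carried the macrophage Ighm signal, since the leading cell held at most 2.19% of the counts in any library. Per 1000 Igha counts there were between 128 and 604 Ighm counts in macrophages and between 55.9 and 236 in T cells, against 3.16 to 20.2 in fibroblasts and 0.336 to 3.54 in plasma cells. Dendritic cells, too few to be tested, also held Ighm. They had 36 and 35 Ighm counts over 45 and 44 cells in CCl4, and 21 and 38 over 29 and 33 cells in control. That was between 88.9 and 946 per 1000 Igha counts. Of the B cell receptor genes, Cd79a was near 0 in these macrophages and Cd79b was not. After thinning, Cd79a was found in 0% and 0.169% of cells in CCl4 and 0% and 0.163% in control, against 25.2% and 30.9% of B cells in CCl4 and 25.9% and 23.7% in control. Cd79b was found in 3.96% and 4.22% of macrophages in CCl4 and in 5.8% and 4.07% in control. The macrophage Ighm level did not differ between the groups past the test (log2 ratio -0.29, SE 0.11, edgeR adjusted p = 0.327), nor that of T cells (log2 ratio 0.13, SE 0.19, edgeR adjusted p = 0.897). The source of these Ighm counts was not tested, and neither the deposited counts nor the labels say whether they come from the coding part of the gene.

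Summed over all cells of a library, 4 of the 10 constant genes were called, all lower in CCl4: Ighg2b (-4.51), Ighg2c (-11.56), Iglc2 (-0.98) and Iglc3 (-2.67 on the log2 scale). In such a sum fewer plasma cells and less RNA per cell cannot be told apart. Igha had 15190 and 12812 CPM in CCl4 and 55789 and 47097 CPM in control (log2 ratio -1.88, SE 0.41, edgeR adjusted p = 0.0619), and the groups did not overlap. The difference did not pass the edgeR test, whereas DESeq2 put it at an adjusted p of 6.93e-37, and edgeR at 0.0258 without the second CCl4 library. Ighg1 was the gene with a positive log2 ratio that did not pass (0.62, edgeR adjusted p = 0.761). Of the 22337 genes tested in whole libraries, 1.63% were called lower and 1.33% higher. Iglc2, higher within plasma cells, was thus lower in the whole library, at 287 and 261 CPM in CCl4 and 556 and 525 CPM in control (edgeR adjusted p = 0.0229).

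Fixed lists of other antibody pathway genes were read from the same fit of plasma cells. In it 1.01% of all genes tested were called higher and 0.444% lower, so a short list with 0 calls does not stand apart. Of the plasma cell programme, which drives antibody secretion and the folding of its products, 0 of 11 tested genes were called, with a median log2 ratio of -0.23. The transcription factor gene Xbp1 had 1522 and 1538 CPM in CCl4 and 2297 and 1882 CPM in control (log2 ratio -0.45, SE 0.11, edgeR adjusted p = 0.0958). Of the survival and homing genes, which include the receptors of the niche factors BAFF and APRIL, 0 of 10 were called (median -0.0037), and of the class switching genes 0 of 5 (median 0.12). Among the 3 genes of polymer assembly and transport, Pigr was called higher, at 49.3 and 56.8 CPM in CCl4 and 10.1 and 21.4 CPM in control (log2 ratio 1.73, SE 0.29, edgeR adjusted p = 0.0233). Pigr is an epithelial gene that was also called higher in fibroblasts, endothelial cells, glia, macrophages and T cells, and the part of free epithelial RNA in it was not tested. Of 4 Fc receptor genes tested, Fcer1g was called higher (log2 ratio 1.5, adjusted p = 0.0333) and Fcrla lower (-0.74, adjusted p = 0.0441) by edgeR. Ighe, the IgE gene, had 2.45 and 12.9 CPM in CCl4 and 1.35 and 0.228 CPM in control (log2 ratio 3.27, edgeR adjusted p = 0.151).

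Over 48 sums of 12 classes and 4 libraries, the genes outside the immunoglobulin genes most like Igha in log2 level were Jchain (Pearson r 0.994), 2010309G21Rik (0.947), Derl3 (0.935), Cacna1s (0.922) and Ccr10 (0.919). Those most like Ighm were Cd79b (0.95), Irf4 (0.933), Arhgap30 (0.930), Ero1lb (0.928) and Slamf6 (0.924). Sums of a library share its depth and free RNA, so these values describe the pattern over classes only.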

How the data were processed

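The authors deposited raw counts per gene and cell barcode for 4 colon libraries, written by PISA per the file headers, on GRCm38 per the submitters' processing notes. The aligner and annotation are not given in the sources used here. Barcodes needed 200 genes or more and no more than 25% mitochondrial counts, and the 6% of cells with the highest Scrublet score (scanpy 1.11.5) were removed per library. Cells were clustered (leidenalg 0.10.2, resolution 1.0, 2000 variable genes, 30 components, 15 neighbours) without 345 immunoglobulin genes and named from markers, which left 6088 cells unnamed; no authors' cell names were used. Dividing mixed clusters again at resolution 0.5 and other naming details were chosen after the data were seen. 2 libraries were given per group, and groups and library numbers follow the sample titles.

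Counts summed per class and library were tested with edgeR 4.0.16 (quasi-likelihood, TMM, filterByExpr, R 4.3.3) over all genes, with Benjamini-Hochberg adjustment and a threshold of 0.05; DESeq2 1.42.0 was an alternative. Shares were tested with an exact two-sided permutation over libraries, for which 0.333 is the smallest p. Shares of cells with a count were taken after thinning each cell to 1000 counts. A count of 0 was read as up to 3 counts. Depth ran between 55834301 and 92383719 counts per library. A comparison of IgM or IgG with IgA plasma cells was planned and not run, because libraries held under 20 such cells. Tests were checked on simulated data. All 10 constant genes were named by rule, with fixed lists of pathway genes. The members and lists were chosen with earlier results of these data known. Gene positions and sequences come from GENCODE M21 on GRCm38, matched by symbol.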

Additional observations from a re-analysis of the deposited data

Results flagged for a closer look

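The change of some constant genes differed between plasma cells and another class when that difference was tested directly (edgeR quasi-likelihood interaction of class and treatment over 17387 genes, Benjamini-Hochberg adjusted, library as a block). Each value is the log2 change in the class minus the log2 change in plasma cells, CCl4 over control. For Iglc3 it was -1.383 in endothelial cells (adjusted p = 0.0307), -1.139 in fibroblasts (0.00218), -1.803 in T cells (0.00143) and -0.9629 in undivided epithelial cells (0.0285), so the level outside plasma cells fell further. For Iglc1 it was -1.379 in fibroblasts (0.0473) and -2.593 in B cells (0.00628), where Iglc1 had 29.6 and 136 CPM in CCl4 and 125 and 586 CPM in control. In undivided epithelial cells it was -2.507 for Ighg1 (0.0219) and 2.303 for Ighg2b (0.0390), and Ighg2b had 21 and 3 counts there in CCl4 and 8 and 8 in control. In plasma cells both IgG genes lay mostly in a few cells of their own subclass. The cause of these differences was not tested.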

How the results depend on the processing

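Over 60 results and 710 alternative values, 621 kept their direction and their side of the threshold or stayed near the main value, 14 lost the threshold, 38 gained it, 26 changed sign and 11 counts moved by over 1.5 times. In plasma cells 4 of the 10 genes were called and 7 without the low-count filter, and the count changed without 1 library. Over all genes tested, 160 were called in plasma cells and 544 without that filter. In B cells 0 of the 10 were called by edgeR, and the count changed without 1 library. With stricter cells (500 genes or more, no more than 10% mitochondrial counts) 1 was called, and 1 with the constant genes kept in the clustering. Over all genes tested in B cells, 1 was called, 2 with stricter cells and 3 with the constant genes kept. In whole libraries 4 were called, between 4 and 9 without 1 library, with 9 without CCl4 library 2. Igha was called lower in 8 classes outside the B lineage, in between 8 and 10 without 1 library, in 6 with stricter cells, in 6 with the constant genes kept in the clustering and in 7 with doublets kept. The IgA share differed by 0.611 to 1.22 percentage points and the log2 ratio of IgA cells was -1.37 to -1.18 without 1 library and -0.85 over non-epithelial cells. With immunoglobulin genes left out of the library size, whole libraries gave 284 genes higher and 626 lower, against 298 and 363.

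Without 1 library the log2 ratio changed sign for Ighm (-2.29 to 2.32), Ighg3 (-1.76 to 0.0299) and Igkc (-0.15 to 0.0279) in plasma cells, for Igha (-1.59 to 1.71) and Ighm (-0.0155 to 0.00856) in B cells, for Ighm (-2.16 to 0.31) and Ighg1 (-0.76 to 1.32) in whole libraries, for Igha in macrophages (-1.33 to 0.83) and for Ighm in T cells (-0.0902 to 0.33). Igha in B cells was -2.0 with stricter cells, -2.03 with doublets kept and -2.09 with the constant genes kept in the clustering. Ighm in B cells was 0.16 without the low-count filter and 0.11 with doublets kept. Igha in macrophages was -0.29 with doublets kept, -0.0458 with the constant genes kept and -1.44 without cells over 5% immunoglobulin counts. Igha in colonocytes was 0.51 with stricter cells, and in glia 1.07 with the constant genes kept. Without the Ighv14-3 and Iglv1 cells, Iglc3 in plasma cells was 2.93, its share of plasma cells was 1.43 percentage points higher in CCl4, and the lambda share was 5.11 points higher. The cause was not tested. Igha in plasma cells passed the threshold without either control library (adjusted p = 0.00453 and 6.37e-06).

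Library numbers are shared between the groups, and the labels do not say that they mark a batch. Same-numbered libraries deviated together with a correlation of 0.0371 in plasma cells, 0.188 in fibroblasts and 0.580 in whole libraries. With a replicate block 7 genes were called in plasma cells, 2 in B cells and 8 in whole libraries, and Igha in macrophages was -0.21. Igha in whole libraries (adjusted p = 1.44e-13) and Ighg1 in plasma cells (4.25e-09) passed the threshold with it. Fits of IgG cells without a control library had under 20 cells and gave no value. With 2 libraries a group, the exact permutation test of a share cannot pass 0.05.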
